A study of Mus musculus with 6 samples.

Results

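The 43 genes described here belong to the machinery that copies DNA and divides cells, and their transcript levels were compared between whole mouse embryos homozygous for the iso allele of *Zic2* and wildtype embryos. They were chosen by gene symbol as 19 genes of S phase, 19 genes of mitosis and 5 genes of G1, with histones left out. Of the 43, 41 have a probe on the array, with 88 probes in all, among 19057 named genes and 45281 probes. *Ccnb1* and *Mki67* carry no probe under their symbols in the annotation used and were not analysed here.

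The iso allele came from a screen with the chemical mutagen ENU and places a premature stop codon in *Zic2*, which encodes a zinc finger transcription factor. *Zic2* iso/iso and wildtype (+/+) embryos came from crosses between iso/+ parents, carried the strain label C3H/HeH, and were taken as whole embryos at E8.0 to E8.5. Each sample was a pool of 8 embryos matched for stage, with 3 pools per genotype and 1 Illumina Mouse WG6 v2 array per pool, on which short probes report each transcript as an intensity. A pool averages its embryos and mixes all of their tissues, so fewer cells of a type and less RNA per cell cannot be told apart, and the p-values measure only the spread between these pools.

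The deposited values are linear probe intensities. They were converted to log2 and quantile normalised, which gives every array the same distribution, and each probe was fitted with limma as *Zic2* iso/iso minus wildtype. Benjamini-Hochberg adjustment ran over the full set of 45281 probes, and a gene was called at an adjusted p of 0.05 or less. A gene is represented by its probe with the highest signal over the 6 pools. Probes below a log2 level of 7.47 were taken as background, and 36 of the 41 members were above it. Levels are compared between pools for the same probe. Probes differ in how strongly they bind, so the signal was used to choose probes and examples and does not order genes by their transcript levels. The background intensity had not been subtracted from the deposited values, so differences of members with a low signal are smaller than those of their transcripts.

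Any pair of pools correlated across probes at a Pearson's r of 0.9928 to 0.9955. The *Zic2* probe with the higher signal gave 7.64, 7.57 and 8.01 in the *Zic2* iso/iso pools and 8.27, 8.06 and 8.00 in the wildtype pools, a difference of -0.37 (adjusted p = 0.614, limma), and the other gave 0.12. Since iso is a point mutation, the level of its transcript does not check the labels. Of 15 whole embryo markers with a probe, 12 were above background (*Six3*, *Pax3* and *Hand2* were not), and so were 12 of 12 yolk sac and visceral endoderm markers, 8 of 14 trophoblast and decidua markers and 4 of 8 maternal blood markers; none of these was called. *Hbb-bh1*, an embryonic globin of primitive red cells, had the widest range over pools of the genes above background, with 12.87, 10.75 and 9.04 in the *Zic2* iso/iso pools and 11.55, 11.74 and 12.17 in the wildtype pools. The yolk sac markers averaged 10.76 ± 0.27 in the *Zic2* iso/iso pools and 10.64 ± 0.21 in the wildtype pools (SD of pool means, n = 3 each). The other lists averaged 9.28 ± 0.28 and 9.48 ± 0.04 (whole embryo), 8.93 ± 0.01 and 9.01 ± 0.10 (trophoblast and decidua), and 9.03 ± 0.30 and 9.14 ± 0.55 (maternal blood) in *Zic2* iso/iso and in wildtype pools. The part of these pool differences in the results below was not tested.

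A dividing cell passes through G1, when D cyclins and their kinases push it towards division and the inhibitors *Cdkn1a* and *Cdkn1b* hold it back, then S phase, when the DNA is copied, and then mitosis, when the copies are parted. Many genes of S phase are switched on together by E2F factors at the end of G1, while many genes of mitosis are held off until G2 through the cell cycle homology region (CHR) of their promoters, which the DREAM and MuvB complexes bind, often beside CCAAT boxes bound by NF-Y. At E8.0 to E8.5 the mouse embryo grows by rapid division in nearly all tissues, so that these genes are active throughout.

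Promoters of the members are shown because the lists differ in these sites and share them within a list. RefSeq promoter windows (GRCm38.p6, 250 bases before to 50 after the start of a transcript, 300 in all) were found for 32 of the 43 members and for 27025 genes in all. An E2F-type site, searched as TTGGCGC, as TTCGCGC, as TTCCCGC and as TTGCCGC on both strands, stood in the windows of 9 of 14 S-phase members (64.3%), 3 of 15 mitosis members (20%) and 0 of 3 G1 members, against 10.9% of all genes with a window. A CHR core, searched as TTTGAA or TTCGAA, stood in 11 of 15 mitosis members (73.3%), 3 of 14 S-phase members (21.4%) and 0 of 3 G1 members, against 21.7% of all genes. A CCAAT box stood in 13 of 15 mitosis members (86.7%), 10 of 14 S-phase members (71.4%) and 2 of 3 G1 members, against 41.1% of all genes. Motif matches may overlap, and a match is a description of the letters, not a shown binding site.

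**Figure D1:**
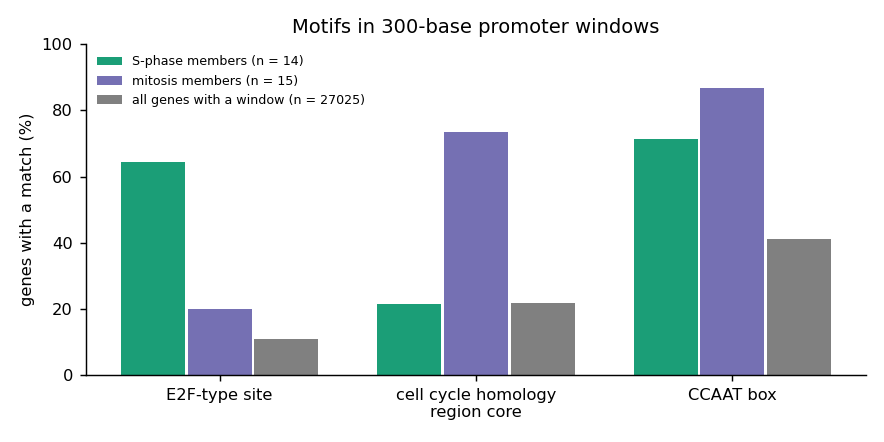
Share of genes (%, vertical axis) whose 300-base RefSeq promoter window holds each motif on either strand, for S-phase members, mitosis members and all genes with a window. E2F-type sites stood in 64.3% of S-phase members and 20% of mitosis members, and CHR cores in 21.4% of S-phase members and 73.3% of mitosis members.

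The S-phase members printed are *Mcm7*, which had the lowest unadjusted p of its list, and *Mcm5*, which had the highest signal of its list, both of them subunits of the replicative helicase. Capitals mark E2F-type sites and CCAAT boxes on either strand, and in both promoters an E2F-type site runs into the letters of a second motif match. The *Mcm7* window, the first of 2 for this gene, is chr5:138171834-138172133, minus strand, and also holds a CHR core, left in lower case, and the *Mcm5* window is chr8:75109259-75109558, plus strand.
Mcm7: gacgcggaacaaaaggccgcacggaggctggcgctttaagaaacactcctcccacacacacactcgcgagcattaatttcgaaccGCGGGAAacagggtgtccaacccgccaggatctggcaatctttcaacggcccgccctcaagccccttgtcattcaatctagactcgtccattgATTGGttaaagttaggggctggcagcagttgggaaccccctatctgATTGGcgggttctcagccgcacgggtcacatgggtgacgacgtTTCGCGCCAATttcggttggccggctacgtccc
Mcm5: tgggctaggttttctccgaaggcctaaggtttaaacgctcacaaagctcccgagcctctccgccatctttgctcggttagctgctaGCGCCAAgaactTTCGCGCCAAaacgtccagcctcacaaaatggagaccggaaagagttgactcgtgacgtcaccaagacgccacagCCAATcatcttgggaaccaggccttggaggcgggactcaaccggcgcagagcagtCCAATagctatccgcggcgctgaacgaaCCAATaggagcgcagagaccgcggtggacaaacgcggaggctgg

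The mitosis members printed are *Aurka*, which had the lowest unadjusted p of its list, and *Cenpa*, which had the highest signal. Capitals mark CHR cores and CCAAT boxes. The *Aurka* window is chr2:172370521-172370820, minus strand, and the *Cenpa* window is chr5:30666636-30666935, plus strand. In both, a single TTTGAA lies downstream of a pair of CCAAT boxes.
Aurka: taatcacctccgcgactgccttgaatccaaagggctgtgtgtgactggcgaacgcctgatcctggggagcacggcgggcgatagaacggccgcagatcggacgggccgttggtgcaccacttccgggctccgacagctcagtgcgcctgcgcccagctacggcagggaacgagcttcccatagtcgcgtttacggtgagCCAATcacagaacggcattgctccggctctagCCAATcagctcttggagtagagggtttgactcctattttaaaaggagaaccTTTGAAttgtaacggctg
Cenpa: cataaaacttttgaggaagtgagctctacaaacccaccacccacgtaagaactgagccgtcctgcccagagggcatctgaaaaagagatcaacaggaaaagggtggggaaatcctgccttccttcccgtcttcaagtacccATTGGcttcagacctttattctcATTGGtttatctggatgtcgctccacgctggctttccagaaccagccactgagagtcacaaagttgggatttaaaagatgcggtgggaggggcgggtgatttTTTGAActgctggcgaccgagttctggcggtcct

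None of the members was called in the *Zic2* iso/iso pools, and the point estimates of the replication and division genes lay on both sides of 0. Of the 36 members above background, 18 had a higher and 18 a lower estimate in *Zic2* iso/iso embryos (47.5% of all genes above background were higher), with differences from -0.21 (*Aurka*) to 0.33 (*Ccnd2*) on the log2 scale. Their median difference was -0.0054, beside -0.0069 over the 10439 genes above background. Without normalisation between arrays 25 of the 36 were higher and 11 lower, where the median of all genes above background was itself 0.07. The count of 0 called members of 36 stands beside 18 called genes of 10439 (0.172%), and beside 20 called probes of 45281 (0.0442%), and the smallest adjusted p among the members was 0.637 (*Ccnd2*, limma). At an unadjusted p of 0.05 or less there were 4 of the 36 (*Mcm7* and *Ccnd2* higher, *Pole* and *Aurka* lower), or 11.1%, the same share as the 11.1% of all genes above background (4.7% higher and 6.38% lower). The pools of the genotypes did not overlap in 3 of the 36, or 8.33%, beside 12% of all genes above background. These shares are near or below those of all genes, and so are no result about the members.

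The intervals show how large a difference these arrays leave room for. The 95% interval of the difference lay within 0.5 on either side of 0 in 34 of the 36 members, *Mcm7* and *Ccnd2* being the exceptions, and the widest bounds of any member were -0.36 and 0.55. The median half-width of the interval was 0.169 and the median standard error 0.078 over the members, as over all genes above background. A difference of at least 0.25 in size was estimated for 2 of the 36, *Mcm7* and *Ccnd2*, beside 3.78% of all genes above background.

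**Figure D2:**
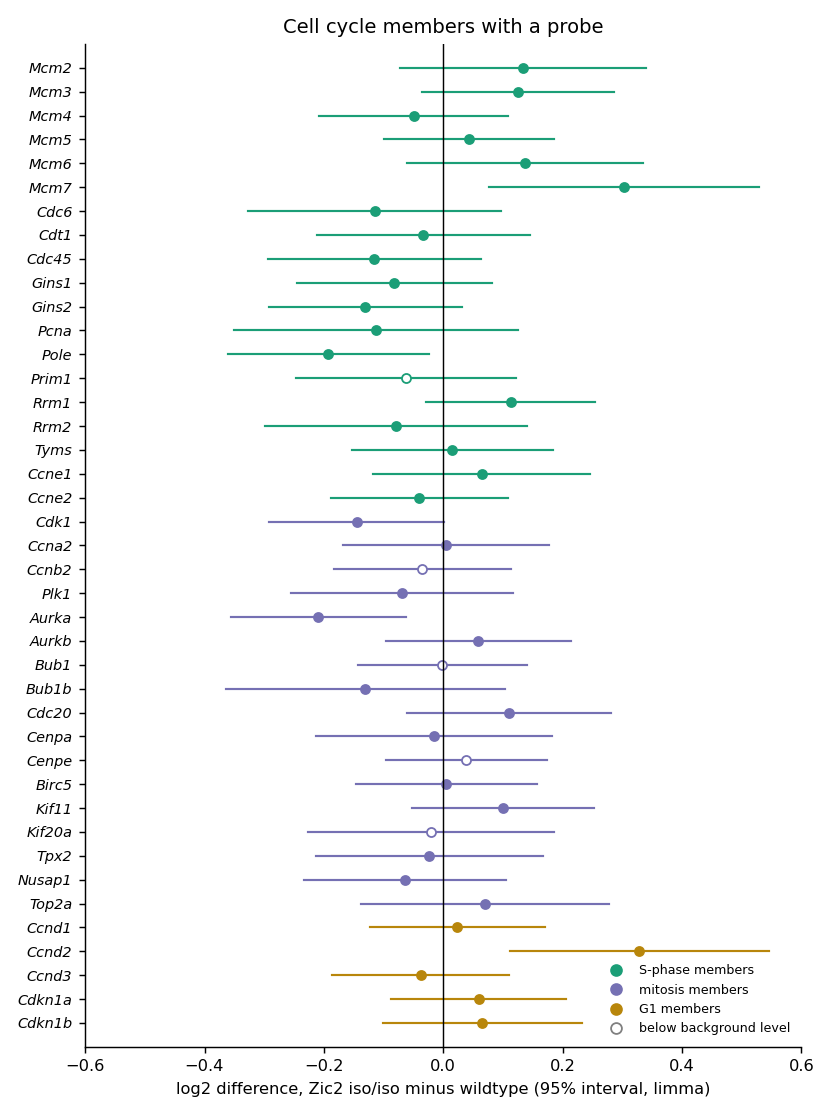
Log2 difference between *Zic2* iso/iso and wildtype pools (horizontal axis, points) with its 95% interval (lines) for the 41 members with a probe, by list and with open points for those below background. Intervals of all but 4 of the members above background include 0 (*Mcm7*, *Pole*, *Aurka* and *Ccnd2*), and none of the members was called.

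The replicative helicase, the ring of *Mcm2* to *Mcm7* that unwinds DNA at the fork, had a higher estimate in *Zic2* iso/iso embryos in 5 of its 6 subunits, with a median difference of 0.13, and none was called. It was 6 of 6 without normalisation, and 5 of 6 with median centring, variance stabilising normalisation, normexp correction and any 1 pool left out. *Mcm7* gave 11.20, 11.57 and 11.37 in the *Zic2* iso/iso pools and 11.26, 11.09 and 10.89 in the wildtype pools. The groups overlapped, since *Zic2* iso/iso pool 1 lay below wildtype pool 1, and the difference was 0.30 (standard error 0.10, 95% interval 0.08 to 0.53, adjusted p = 0.723, limma). The other *Mcm7* probe, which was above background too, gave a difference of -0.0048, so that the estimate rests on 1 of 2 probes. The remaining subunits gave 0.13 (*Mcm2*), 0.13 (*Mcm3*), -0.05 (*Mcm4*), 0.04 (*Mcm5*) and 0.14 (*Mcm6*), each with an interval that includes 0. The other 2 probes of *Mcm4* above background gave 0.10 and 0.19. *Mcm5* gave 13.83, 13.73 and 13.85 in the *Zic2* iso/iso pools and 13.75, 13.81 and 13.73 in the wildtype pools, which overlapped. *Mcm6* is read by 3 probes above background, which gave 0.14, -0.02 and -0.24, and the pools of the last did not overlap (10.75, 10.73 and 10.40 in *Zic2* iso/iso, 10.77, 10.77 and 11.06 in wildtype; adjusted p = 0.809, limma).

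The steps before and after helicase loading had lower estimates in all 7 members above background, again with no call. Without normalisation, without *Zic2* iso/iso pool 1 or without wildtype pool 2 it was 6 of the 7. Joining these steps into a set was not planned, and 5485 of the 10439 genes above background had lower estimates too. Of 47 other replication genes above background, 28 were higher and 19 lower. Related genes lay on both sides of 0, with 0.08 for *Gins3* and -0.16 for *Gins4*, and 0.06 for *Pole3* and -0.19 for *Pole4*. *Cdc6* and *Cdt1* load the helicase onto origins and gave differences of -0.12 and -0.03. *Cdc45*, *Gins1* and *Gins2* join the loaded ring to make the active helicase and gave -0.12, -0.08 and -0.13. *Pcna*, the sliding clamp that holds polymerases on DNA, gave -0.11. *Pole*, the catalytic subunit of the polymerase that copies the leading strand, had the lowest estimate of the S-phase members at -0.19 (standard error 0.08, 95% interval -0.36 to -0.02, adjusted p = 0.788, limma). Its levels were 8.37, 8.43 and 8.28 in the *Zic2* iso/iso pools and 8.40, 8.62 and 8.64 in the wildtype pools. Wildtype pool 1 lay within the range of the mutant pools, and the other wildtype pools lay above it. *Prim1*, the small catalytic subunit of primase, was below background.

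Ribonucleotide reductase makes the building blocks of DNA, and its subunits had estimates of opposite sign on the probes that stand for them. *Rrm1*, the large subunit, was the single S-phase member whose pools did not overlap, with 11.76, 11.80 and 11.82 in the *Zic2* iso/iso pools and 11.73, 11.60 and 11.71 in the wildtype pools. The difference was 0.11 (standard error 0.07, 95% interval -0.03 to 0.25, adjusted p = 0.90, limma; exact two-sided permutation p = 0.1, the smallest that 3 against 3 pools can give). The other 2 probes of *Rrm1* gave 0.17 and 0.16, but their pools overlapped. *Rrm2*, the small subunit, gave -0.08 (95% interval -0.30 to 0.14), and its other probes gave 0.03 and -0.11. *Tyms*, thymidylate synthase, gave 0.01. Cyclin E, which with *Cdk2* starts S phase, gave 0.06 for *Ccne1* and -0.04 for *Ccne2*.

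Over the 18 S-phase members above background, 8 estimates were higher and 10 lower in *Zic2* iso/iso embryos, with a median of -0.04. The mean level of the list was 11.01, 11.09 and 11.08 in the *Zic2* iso/iso pools and 11.04, 11.06 and 11.08 in the wildtype pools. The group means were 11.06 ± 0.04 and 11.06 ± 0.02 (SD, n = 3 each), and *Zic2* iso/iso pool 1 was the lowest of the 6. Members with an E2F-type site in their window had a median difference of 0.08 (8 genes) and those without one 0.01 (5 genes). This split leaves out *Mcm4*, *Gins1*, *Gins2*, *Pole* and *Ccne2*, which have no window and all had lower estimates. Both medians therefore lie above that of the whole list, and whether the site matters was not tested.

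**Figure D3:**
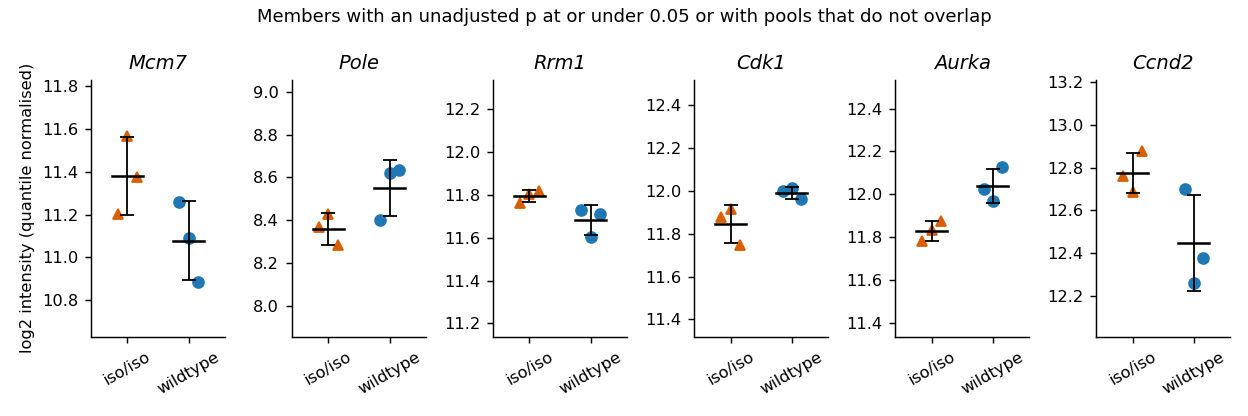
Log2 level of each pool (points), with the mean and SD of each genotype (lines), for the 4 members with an unadjusted p of 0.05 or less and for *Rrm1* and *Cdk1*, whose pools did not overlap. Vertical axes span the same width but start at different levels. Pools overlap in *Mcm7*, *Pole* and *Ccnd2* and do not in *Rrm1* (higher in *Zic2* iso/iso), *Cdk1* and *Aurka* (lower).

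Of the kinases that run mitosis, *Aurka* and *Cdk1* had the lowest estimates of their list and pools that did not overlap, without passing the test. *Aurka*, which builds the spindle poles, gave 11.78, 11.83 and 11.88 in the *Zic2* iso/iso pools and 12.02, 11.97 and 12.13 in the wildtype pools. Every mutant pool lay below every wildtype pool, and the difference was -0.21 (standard error 0.07, 95% interval -0.36 to -0.06, adjusted p = 0.683, limma; exact two-sided permutation p = 0.1). *Cdk1*, the kinase that drives entry into mitosis, gave 11.88, 11.92 and 11.75 in the *Zic2* iso/iso pools and 12.00, 12.01 and 11.96 in the wildtype pools, a difference of -0.15 (standard error 0.07, 95% interval -0.29 to 0.0017, adjusted p = 0.836, limma). *Plk1*, which acts on centrosomes and kinetochores, gave -0.07, and *Aurkb*, the kinase of the chromosomal passenger complex, gave 0.06. Of the cyclins that bind *Cdk1*, *Ccna2* gave 0.0045 and *Ccnb2* was below background.

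*Cdc20* and *Bub1b*, of the spindle checkpoint, gave estimates of opposite sign, each with an interval that includes 0. *Cdc20* activates the anaphase-promoting complex and had the highest estimate of the mitosis members at 0.11 (standard error 0.08, 95% interval -0.06 to 0.28, adjusted p = 0.934, limma). Its levels were 13.23, 13.29 and 13.26 in the *Zic2* iso/iso pools and 13.28, 13.17 and 12.99 in the wildtype pools, with wildtype pool 1 inside the mutant range. The other 3 probes of *Cdc20* gave -0.03, 0.07 and 0.10. Without wildtype pool 3 the estimate of *Cdc20* was 0.03 and no longer the highest of the list. Nor was it the highest with variance stabilising normalisation (0.092, highest 0.098) or without *Zic2* iso/iso pool 3 (0.108, highest 0.112). The estimate of *Cdc20* was 0.18 without wildtype pool 1, 0.06 with the mean of its probes and 0.19 without normalisation. *Bub1b*, a checkpoint protein that restrains *Cdc20*, gave -0.13 (95% interval -0.36 to 0.10), with wildtype pools from 10.65 to 11.17 around mutant pools from 10.74 to 10.87. Its other probe gave -0.04. *Bub1*, a kinase of the same checkpoint, was below background.

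Genes of the kinetochore, the spindle and the mitotic chromosome had estimates from -0.06 to 0.10, each with an interval that includes 0. *Cenpa*, the histone variant that marks centromeres, gave 14.51, 14.24 and 14.13 in the *Zic2* iso/iso pools and 14.22, 14.36 and 14.34 in the wildtype pools, a difference of -0.02 (standard error 0.09), and its mutant pools held both the highest and the lowest level. *Birc5* (survivin, of the passenger complex) gave 0.01, *Kif11* (the motor that pushes spindle poles apart) 0.10, *Tpx2* (which activates *Aurka* on the spindle) -0.02, *Nusap1* (a protein of spindle microtubules) -0.06 and *Top2a* (which untangles sister DNA) 0.07. *Cenpe* and *Kif20a*, a kinetochore motor and a motor of cytokinesis, were below background. The 5 members below background, *Prim1*, *Ccnb2*, *Bub1*, *Cenpe* and *Kif20a*, had pool levels from 7.01 to 7.41 and differences from -0.06 to 0.04, which say little about their transcripts.

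Over the 13 mitosis members above background, 6 estimates were higher and 7 lower in *Zic2* iso/iso embryos, with a median of -0.02. The mean level of the list was 11.24, 11.31 and 11.25 in the *Zic2* iso/iso pools and 11.31, 11.29 and 11.27 in the wildtype pools, or 11.27 ± 0.04 and 11.29 ± 0.02 (SD, n = 3 each). Mutant pool 2 stood at the top of the 6 and the other mutant pools at the bottom. Members with a CHR core had a median difference of -0.04 (8 genes) and those without one -0.03 (2 genes). *Ccna2*, *Aurkb* and *Tpx2* have no window and are not in this split. The S-phase mean minus the mitosis mean was -0.21 ± 0.03 in the *Zic2* iso/iso pools and -0.23 ± 0.03 in the wildtype pools, so that the genotypes differed by less than 1 SD.

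Of the D cyclins, which carry growth signals into the cycle, *Ccnd2* had the highest estimate among the members, while *Ccnd1* and *Ccnd3* had small estimates on the probes that stand for them. *Ccnd2* gave 12.76, 12.69 and 12.88 in the *Zic2* iso/iso pools and 12.70, 12.26 and 12.38 in the wildtype pools, with wildtype pool 1 just above the lowest mutant pool. The difference was 0.33 (standard error 0.10, 95% interval 0.11 to 0.55, adjusted p = 0.637, limma), the largest of any member. The other *Ccnd2* probes above background gave 0.29 and 0.14, and in both the mutant pools lay above the wildtype pools without overlap: 12.30, 11.99 and 11.91 in *Zic2* iso/iso against 11.90, 11.71 and 11.73 in wildtype for the first, and 8.80, 8.80 and 8.79 against 8.62, 8.62 and 8.73 for the second (adjusted p = 0.704 and 0.821, limma). Pools did not overlap, in either direction, in 11.8% of all probes above background. All 3 *Ccnd2* probes gave a higher level in *Zic2* iso/iso embryos by the point estimate, also under each other scaling and without any 1 pool. None was called.

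*Ccnd1* gave 13.66, 13.62 and 13.67 in the *Zic2* iso/iso pools and 13.72, 13.55 and 13.60 in the wildtype pools, a difference of 0.02 (standard error 0.07). Its other probes gave -0.0054 and 0.28 (adjusted p = 0.704 for the second, limma). *Ccnd3* gave 12.25, 12.23 and 12.40 in the *Zic2* iso/iso pools and 12.33, 12.36 and 12.30 in the wildtype pools, a difference of -0.04 (standard error 0.07), while its other probes gave 0.15 and 0.17. Over the 9 D cyclin probes above background, 7 estimates were higher and 2 lower, and 5 had an unadjusted p of 0.05 or less, all of them higher (5.27% of all probes above background were higher at that p). Probes of 1 gene read the same embryos and are not independent of each other.

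The inhibitors of cyclin-dependent kinases differed little between the genotypes on the probes that stand for them. *Cdkn1a* (p21), through which p53 halts the cycle, gave 8.92, 9.07 and 9.03 in the *Zic2* iso/iso pools and 8.89, 8.94 and 9.005 in the wildtype pools, a difference of 0.06 (standard error 0.07, adjusted p = 0.964, limma). Its other probes gave 0.16 and 0.0064. *Cdkn1b* (p27) gave 7.65, 7.88 and 7.80 in the *Zic2* iso/iso pools and 7.69, 7.64 and 7.80 in the wildtype pools, a difference of 0.07 (standard error 0.08, adjusted p = 0.966, limma). The pools overlapped in both genes. The 5 G1 members had a median difference of 0.06. Their mean level was 11.10 ± 0.05 in the *Zic2* iso/iso pools and 11.01 ± 0.06 in the wildtype pools (SD, n = 3 each). That mean takes in both D cyclins and inhibitors. Within it *Ccnd2* gave 0.33, while the other members ran from -0.04 (*Ccnd3*) to 0.07 (*Cdkn1b*).

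Probes of the same member often differed in sign. Of the 69 member probes above background, 37 gave a higher and 32 a lower estimate in *Zic2* iso/iso embryos, 6 higher and 3 lower at an unadjusted p of 0.05 or less (5.27% and 5.39% of all probes above background), and 0 were called. Of the 18 members with more than 1 probe above background, 8 had probes of 1 sign and 10 had probes of both. *Rrm1* and *Ccnd2* were of the first kind, and *Mcm6*, *Mcm7*, *Ccnd1* and *Ccnd3* of the second.

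**Figure D4:**
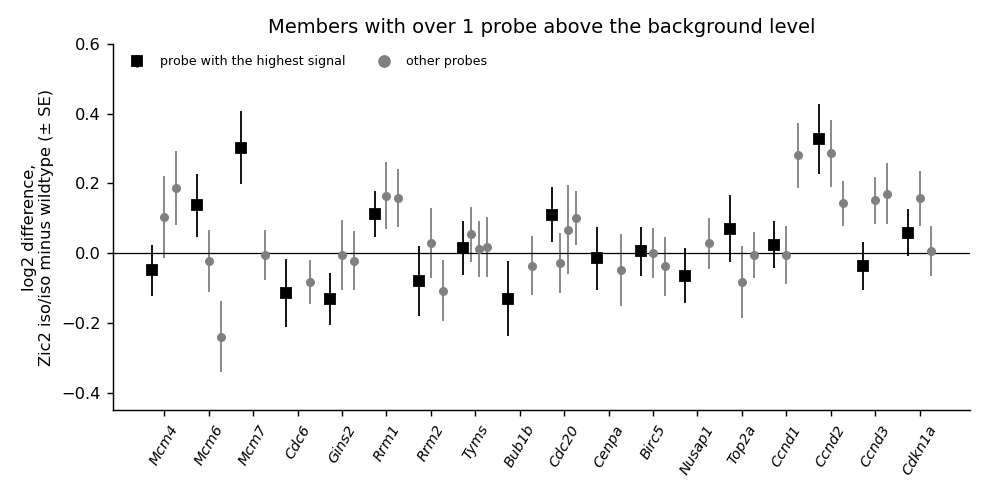
Log2 difference between *Zic2* iso/iso and wildtype pools, with its standard error, for each probe above background of the 18 members with more than 1 such probe. Black squares are the probes that stand for a gene and grey circles its other probes. All 3 probes of *Ccnd2* and of *Rrm1* lie above 0, while those of *Mcm6* run from 0.14 to -0.24.

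The members varied between pools about as much as other genes did. The range over the 6 pools had a median of 0.305 in the S-phase members, 0.302 in the mitosis members and 0.173 in the G1 members, beside 0.295 over all genes above background, and reached 3.83 in *Hbb-bh1*. The median SD within a genotype was 0.106 over the members and 0.107 over all genes above background. The member with the widest range was *Mcm7* at 0.679.

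Wider lists of the same machinery, none of them members, likewise held 0 called genes. Of 47 other replication genes above background, 28 had a higher and 19 a lower estimate in *Zic2* iso/iso embryos, with a median of 0.02, from -0.27 (*Orc5*, adjusted p = 0.704, limma) to 0.15 (*Orc3*, adjusted p = 0.885), both subunits of the origin recognition complex. Of 60 other mitosis genes, 29 were higher and 31 lower, with a median of -0.0073. *Kifc1*, a minus-end directed motor of the spindle, gave 10.74, 10.73 and 10.88 in the *Zic2* iso/iso pools and 10.52, 10.35 and 10.25 in the wildtype pools, a difference of 0.41 (standard error 0.08, adjusted p = 0.165, limma). *Prc1*, which bundles microtubules of the central spindle, gave 12.47, 12.59 and 12.29 in the *Zic2* iso/iso pools and 12.71, 12.81 and 12.82 in the wildtype pools, a difference of -0.33 (standard error 0.08, adjusted p = 0.414, limma). The pools overlapped in neither gene, and their estimates were of opposite sign. Pools did not overlap in 10 of the 60 other mitosis genes (16.7%), beside 12% of all genes above background.

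Of 24 other G1 genes and regulators of cyclin-dependent kinases, 12 were higher and 12 lower, with a median of -0.0020, from -0.15 (*Cdkn1c*, the inhibitor p57, adjusted p = 0.837, limma) to 0.22 (*Rbl1*, the pocket protein p107, adjusted p = 0.754). The estimate of *Rbl1* was 0.12 without *Zic2* iso/iso pool 1 and 0.06 with the mean of its probes. Of 19 targets of p53 above background, which respond to DNA damage and other stress, 8 were higher and 11 lower, with a median of -0.02. The highest was *Polk*, a polymerase that copies past damage, at 0.15 (adjusted p = 0.884, limma). *Gadd45a*, a growth arrest gene, had the lowest estimate at -0.46 (standard error 0.09, 95% interval -0.65 to -0.28, adjusted p = 0.144, limma). Its levels were 10.24, 10.30 and 9.95 in the *Zic2* iso/iso pools and 10.67, 10.62 and 10.59 in the wildtype pools, which did not overlap. With the mean of its probes in place of the probe with the highest signal, *Gadd45a* passed the test (difference -0.50, adjusted p = 0.0351, limma). It was the single gene of these lists to do so under any setting tried. The fit on mean values held 1 value per gene, so its adjusted p and the 0.144 come from different sets of tests. The share of all genes called in that fit is not given here.

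**Figure D5:**
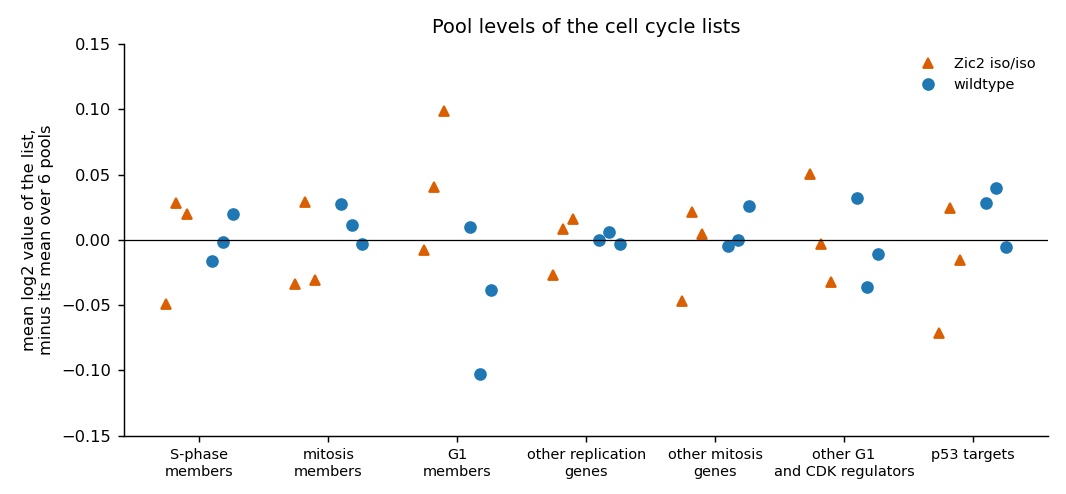
Mean log2 level of each list in each pool, minus its mean over the 6 pools (vertical axis), for the 3 member lists and the 4 wider lists, with *Zic2* iso/iso pools as triangles left of wildtype pools as circles. Pools of the genotypes overlap in every list, and all points lie within 0.15 of 0.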

How the data were processed

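Genotypes and replicate numbers of the 6 pools were taken from the labels. The authors deposited linear probe intensities, neither background-subtracted nor normalised between arrays (lowest values 104 to 122, medians 154 to 187). The variance stabilising normalisation named in the study's methods is not in them and was recomputed as an alternative. A floor of 1 was set before log2 conversion and quantile normalisation, and probes were tested with limma 3.58.1 in R 4.3.3 (lmFit, then eBayes with a single variance prior, no covariates). Adjusted p-values are Benjamini-Hochberg values, over 45281 probes in the main fit, with a threshold of 0.05. Intervals are 95% intervals of the moderated fit. For single genes an exact permutation test of the pools, two-sided, was added. Of the probes, 34885 carry 1 symbol in the array annotation, 18 several and 10378 none, and probes of the last kinds were not used for genes. Background was set at the 95th percentile of mean log2 levels over 1608 probes of olfactory receptors, vomeronasal receptors, defensins and keratin-associated proteins, and 40.7% of probes were above it. The fit was tested on simulated data. The number of arrays limits the precision.

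The members, the lists and the rule for named genes were chosen with earlier results of these data known. By that rule every member is named under its role, and pool values are given for members with an unadjusted p of 0.05 or less, for those with the highest difference, the lowest difference or the highest signal of a list, for all G1 members, and for the highest and lowest gene of each wider list. The pool values of *Rrm1*, *Cdk1*, *Hbb-bh1* and single probes, and the remark on *Bub1b*, were added after their values were seen. Joining helicase loading, activation and the fork into a single set was not part of the plan. Alternatives were no normalisation, median centring, variance stabilising normalisation, normexp background correction (offset 50), dim probes left out, eBayes with a robust prior or an intensity trend, array weights, a replicate block, each pool left out in turn, the mean of a gene's probes and a 99th percentile background level.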

Additional observations from a re-analysis of the deposited data

How the results depend on the processing

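None of the 36 members above background was called under any alternative. The estimates of *Ccnd2* ran from 0.21 to 0.46 (lowest adjusted p = 0.101, limma) and of *Mcm7* from 0.15 to 0.39 (0.311). Those of *Pole* ran from -0.27 to -0.11 (0.353) and of *Aurka* from -0.24 to -0.14 (0.552). Each lowest adjusted p came without wildtype replicate 1, and without wildtype replicate 3 the adjusted p of each of these genes was 0.999. The lowest adjusted p of *Kifc1* was 0.0647 (limma), without wildtype replicate 1, and with any other pool left out it ran from 0.318 to 0.642. With the mean of a gene's probes the estimate was 0.29 for *Kifc1* and -0.21 for *Prc1* (adjusted p = 0.619 and 0.656, limma). Over all probes the 20 calls became 4 without normalisation, 11 with median centring and 31 with an intensity trend, and 14 to 29 with 1 pool left out. With the replicate block the 20 calls became 17, and the member lists and wider lists still held 0 called genes. The labels tie the numbers to no shared litter or day. The deviations of same-numbered pools from their group means correlated at -0.13, -0.02 and -0.12. The best partner, checked once per replicate number, was never the pool of the same number.

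Without normalisation the median difference was 0.0453 in S-phase members, 0.0663 in mitosis members, 0.135 in G1 members, 0.0926, 0.0747 and 0.0838 in the other replication, mitosis and G1 lists and 0.0589 in p53 targets. The median of all genes above background was 0.0716 under that setting. Relative to it the G1 members lay at 0.063, beside 0.0661 in the fit reported above. The median of the other mitosis genes was 0.026 with median centring. With 1 pool left out, the median of the mitosis members ran from -0.0435 to 0.0269 (highest without *Zic2* iso/iso replicate 1), that of the S-phase members from -0.0598 to 0.0108 and that of the G1 members from 0.029 to 0.101. With the mean of a gene's probes 1 p53 target was called (*Gadd45a*, -0.50, adjusted p = 0.0351).

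Over all 36 members above background, 18 were higher in the fit reported above and 25 without normalisation. Of the members followed singly through each alternative, 3 with small estimates turned in sign. *Ccnd3* was 0.0315 without normalisation and 0.095 with the mean of its probes. *Cenpa* was 0.0635 without normalisation and 0.0147 with median centring, and ran from -0.123 to 0.0598 with 1 pool left out. *Ccnd1* ran from -0.0139 (without wildtype replicate 2) to 0.0735. The cause was not tested. Groups of 3 pools were too small to search for a pool that stands apart in a single gene. Signals close to background, as in *Ccna2*, *Cdkn1b* and the 5 members below it, limit what their differences show.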
